A study of Mus musculus with 14 samples.

Results

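In basal epidermal progenitor cells of newborn mice, 301 of the 2813 H3K27me3 regions found in both replicates on chromosomes 1 to 19 carried H2AK119ub but no Ring1b peak. These 301 regions are the subject here. They were selected on the called peaks of all 3 antibodies, as H3K27me3 regions that shared at least 1 bp with an H2AK119ub region and met no peak of either Ring1b replicate, where a region of an antibody is a merged stretch to which peaks of both replicates contributed. They made up 10.7% of the H3K27me3 regions (95% Wilson interval 9.61 to 11.9, counting error only) and overlapped 334 of 2450 H2AK119ub regions. The name describes peak calls: a region without a called Ring1b peak may hold Ring1b below the calling limit, and Ring1b reads outside peaks were not analysed here.

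Polycomb repressive complexes keep developmental genes silent. PRC1 contains a ubiquitin ligase, Ring1b or its paralog Ring1a, that attaches ubiquitin to a lysine of histone H2A (H2AK119ub), and PRC2 methylates a lysine of histone H3 (H3K27me3). Subunits of some PRC1 complexes bind H3K27me3 and some PRC2 complexes bind H2AK119ub, so the marks often occur together with the ligase. In epidermis, Polycomb complexes are known to repress genes of other lineages, among them the Merkel cell programme.

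Chromatin immunoprecipitation and sequencing (ChIP-seq) compared Ring1b, H2AK119ub and H3K27me3, with 2 replicates each, in 1 kind of cell. There was no treatment, mutant or second cell type among these 6 samples. All came from back skin epidermis at postnatal day 0 of mice carrying the reporters Krt14-RFP and Krt10-H2B-GFP, and cells were sorted as positive for Sca1, high for RFP and negative for GFP. Krt14 marks the basal layer and Krt10 the layers above it. Each histone ChIP used 400000 cells and each Ring1b ChIP 6000000. The labels do not say whether a replicate is 1 animal or a pool, so an error over 2 replicates may be no more than technical spread. The replicate lists held 3012 to 5793 peaks per sample on these chromosomes. The peak lists of repressive marks give no expression by which to check the sorted cell type, and none of 29 genes of basal keratinocytes, 35 of epidermal differentiation or 11 of melanocytes had a promoter among the 301 regions. Those lists also had 0 genes at regions with Ring1b in both replicates, and with 0.857% of all protein-coding genes at the 301 regions, lists of this size give no more than a description.

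The promoters of 5 genes whose regions are described below are shown as examples: the region with the highest rank over both marks (C1ql2), a potassium channel gene (Kcnc1), a region among the farthest from Ring1b (Oxtr), a region wholly covered by H2AK119ub (Tubb3) and a skeletal muscle gene (Acta1). Each is the RefSeq window from 250 bases before to 50 bases after the gene start on GRCm38.p6, the assembly named mm10, read 5′ to 3′ on the gene's strand. CpG dinucleotides, the sites of DNA methylation and a known feature of Polycomb target promoters, are in capitals.
C1ql2: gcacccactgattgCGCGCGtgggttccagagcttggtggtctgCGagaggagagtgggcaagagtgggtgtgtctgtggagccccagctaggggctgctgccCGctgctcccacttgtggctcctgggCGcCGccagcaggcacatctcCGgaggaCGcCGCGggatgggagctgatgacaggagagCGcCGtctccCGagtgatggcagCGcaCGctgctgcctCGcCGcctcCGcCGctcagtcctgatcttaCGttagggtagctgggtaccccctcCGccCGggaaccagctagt
Kcnc1: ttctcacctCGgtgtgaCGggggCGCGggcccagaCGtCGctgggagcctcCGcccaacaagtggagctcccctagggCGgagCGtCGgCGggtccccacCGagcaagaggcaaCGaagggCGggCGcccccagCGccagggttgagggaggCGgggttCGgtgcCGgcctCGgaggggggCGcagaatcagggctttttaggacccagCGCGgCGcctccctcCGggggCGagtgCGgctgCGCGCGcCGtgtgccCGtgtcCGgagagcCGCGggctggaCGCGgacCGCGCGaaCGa
Oxtr: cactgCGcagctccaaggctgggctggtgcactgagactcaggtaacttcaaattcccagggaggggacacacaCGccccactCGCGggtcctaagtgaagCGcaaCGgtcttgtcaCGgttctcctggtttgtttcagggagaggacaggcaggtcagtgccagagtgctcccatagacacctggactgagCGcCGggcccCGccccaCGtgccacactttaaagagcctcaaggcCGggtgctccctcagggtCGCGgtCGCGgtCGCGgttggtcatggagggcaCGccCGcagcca
Tubb3: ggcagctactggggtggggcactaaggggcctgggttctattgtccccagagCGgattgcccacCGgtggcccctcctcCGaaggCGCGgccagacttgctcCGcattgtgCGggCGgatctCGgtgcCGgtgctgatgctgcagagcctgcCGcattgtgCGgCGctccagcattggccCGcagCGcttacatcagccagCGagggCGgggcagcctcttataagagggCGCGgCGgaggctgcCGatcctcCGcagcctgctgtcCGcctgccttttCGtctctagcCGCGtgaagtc
Acta1: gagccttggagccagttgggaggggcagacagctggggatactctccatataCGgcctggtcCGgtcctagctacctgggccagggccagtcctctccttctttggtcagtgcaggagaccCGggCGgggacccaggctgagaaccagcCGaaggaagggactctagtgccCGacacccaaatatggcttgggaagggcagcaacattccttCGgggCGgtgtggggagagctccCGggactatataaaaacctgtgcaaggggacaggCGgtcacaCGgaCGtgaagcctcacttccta
The C1ql2 window lies at chr1:120340332-120340631 on the plus strand, and Kcnc1 at chr7:46396218-46396517 on the plus strand. Oxtr lies at chr6:112489776-112490075 on the minus strand, Tubb3 at chr8:123411303-123411602 on the plus strand and Acta1 at chr8:123894726-123895025 on the minus strand. All 5 windows lay inside their H3K27me3 regions. Kcnc1 held 41 CpG in its 300 bases, Tubb3 26, C1ql2 23, Oxtr 20 and Acta1 12. The Acta1 window contained the motif TATAAA, which none of the other 4 held on either strand. Of the promoter windows of all protein-coding genes, 13.5% held TATAAA on either strand. The windows do not stand for the 301 regions, because a window was found for only 66.3% of their promoter genes.

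MicroRNA genes were also named at these regions, and the mature forms of 2 are shown because the genes differ in where they lie. MicroRNAs pair with messenger RNAs through the seed (bases 2 to 8, in capitals).
mmu-miR-199b-3p: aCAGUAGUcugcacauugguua
mmu-miR-135a-5p: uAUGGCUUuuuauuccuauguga
The Mir199b hairpin (chr2:32318460-32318569, plus strand, GRCm38.p6) lay inside its region, which both H3K27me3 replicates placed at a promoter. The Mir135a-1 hairpin (chr9:106154124-106154213, plus strand) lay outside its region, which was a promoter row in replicate 1 and distal in replicate 2. The seeds differ. At Mir199b H2AK119ub covered only 5.7% of the H3K27me3 region, and a Ring1b peak lay 485 bp away.

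Regions with both marks numbered 1389, and the larger share of them held Ring1b. Ring1b was found in both replicates at 912 (65.7%, 95% interval 63.1 to 68.1), in 1 replicate at 176 (12.7%) and in neither at 301 (21.7%, 19.6 to 23.9). Another 619 H3K27me3 regions met neither H2AK119ub nor Ring1b. The share lacking Ring1b depended on which peaks were accepted. The 301 became 477 where a Ring1b peak of 1 replicate was allowed, 130 where mark peaks needed a deposited p-value of at most 0.001, and 571 without H2AK119ub replicate 1.

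The values that chose the regions are given as a description, with no test. The ratio of ChIP to input reads inside a peak was used as its strength. The ratio was compared between regions only within a replicate of 1 antibody, since it was not scaled for library size. Where a mean and SD of a gene's ratios over both replicates are given, they therefore include differences between libraries. The H2AK119ub ratio with and without Ring1b differed by less than the spread between replicates, whereas H2AK119ub peak height and length, given below, were lower without Ring1b. The median H2AK119ub ratio was 1.92 at the 301 regions and 1.87 at the 912 regions with Ring1b in replicate 1, and 2.17 and 2.24 in replicate 2. The 2 replicates therefore put the difference on opposite sides of 0, and their mean log2 difference was -0.0023 ± 0.057 (SD, n = 2). H3K27me3 was weaker without Ring1b in both replicates. Its median ratio was 11.2 against 13.4 in replicate 1 and 4.85 against 5.51 in replicate 2, a mean log2 difference of -0.22 ± 0.055 (SD, n = 2). Regions with H3K27me3 but neither H2AK119ub nor Ring1b were lower still, at 9.88 and 4.21.

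Maximum height, the tallest pileup that the authors give for a peak, was taken as the largest value over a region's peaks. It was lower for both marks. Regions with Ring1b were also longer, as given below, and heights were not adjusted for length. Median H2AK119ub height was 13 against 16 in replicate 1 and 17 against 21 in replicate 2. Median H3K27me3 height was 60 against 79 and 40 against 55. The H2AK119ub values rest on few reads, with a median of 82 ChIP and 44 input reads per region in replicate 1 and 191 and 86 in replicate 2. H3K27me3 had 928 and 82 in replicate 1 and 443 and 96 in replicate 2. A deposited p-value above 0.05 for at least 1 H2AK119ub peak occurred at 21 of the 301 regions in replicate 1 and 29 in replicate 2, and at none for H3K27me3.

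The regions were shorter than those with Ring1b. Their median length was 7406 bp (quartiles 5168 and 11183, range 2346 to 50001), against 11881.5 bp with Ring1b, 7087.5 bp with Ring1b in 1 replicate and 5408 bp for H3K27me3 alone. The summed length of a region's H2AK119ub peaks was lower as well. Its median was 2203 bp against 3927.5 bp with Ring1b in replicate 1, and 4357 bp against 6974.5 bp in replicate 2. H2AK119ub covered a median of 60.8% of a region's length, against 64.8% with Ring1b. It covered at least 50% at 184 of 301 (61.1%) and at 668 of 912 (73.2%), and the whole region at 26 of the 301. A longer region has more room to meet a peak, so length is tied to the selection. H2AK119ub peaks can also reach past the H3K27me3 region, and 16 of the 301 shared an H2AK119ub region with a Ring1b peak lying outside their H3K27me3 region.

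**Figure D1:**
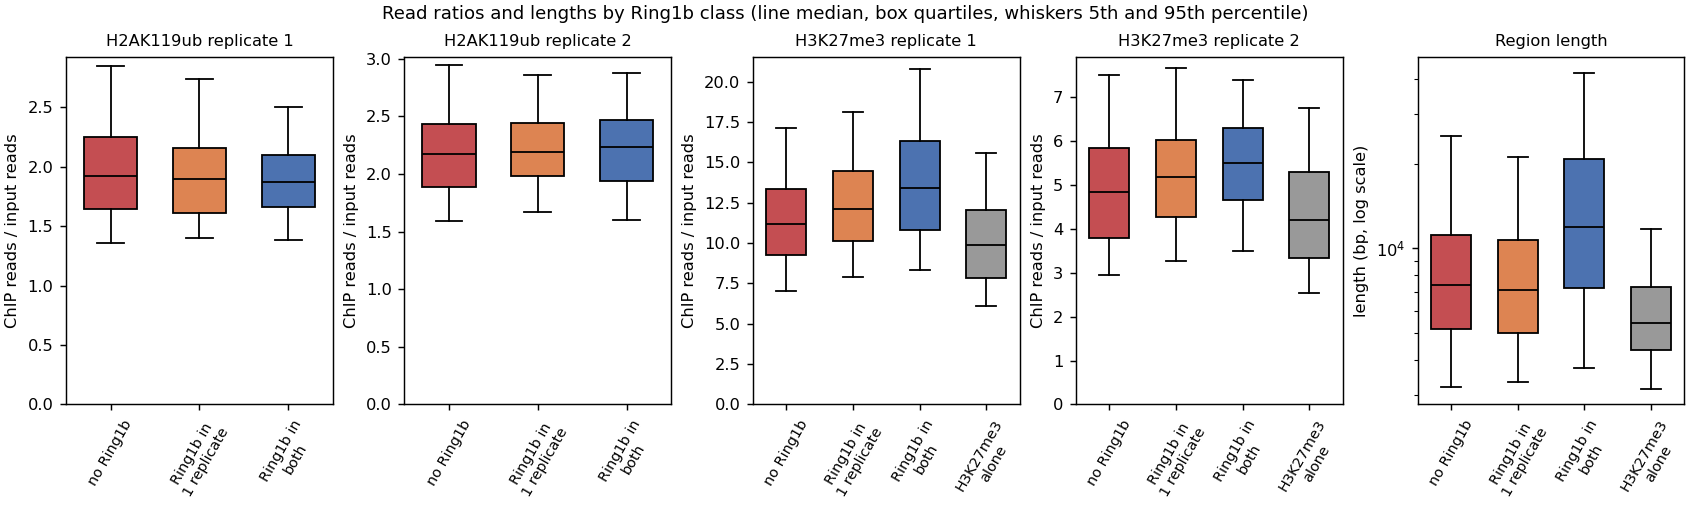
ChIP to input read ratio per replicate for H2AK119ub and H3K27me3, and region length on a log axis, by Ring1b class (line median, box quartiles, whiskers 5th and 95th percentile, n = 301, 176, 912 and 619). The H2AK119ub medians lie between 1.87 and 2.24 in all 3 classes with both marks, while the H3K27me3 medians rise from H3K27me3 alone (9.88 and 4.21) to regions with Ring1b in both replicates (13.4 and 5.51).

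Across quartiles of H3K27me3 strength, the share of regions with both marks that lacked Ring1b fell in replicate 1 from 35.6% (95% interval 30.8 to 40.8) in the lowest quartile to 8.07% (5.64 to 11.4) in the highest. In replicate 2 it was 34.5% in the lowest quartile, 13.8% in the third and 17.0% in the highest. By length the share was 32.2% in the shortest quartile (2327 to 6146 bp) and 11.5% in the longest (17104 to 139975 bp). Quartiles of H2AK119ub ratio showed no such order: the shares were 23.0%, 16.1%, 19.3% and 28.2% in replicate 1 and 25.3%, 23.3%, 17.3% and 20.7% in replicate 2.

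Location separated the classes more than the H2AK119ub ratio did. Promoters, by the class the authors gave each peak, held 171 of the 301 regions in both H3K27me3 replicates (56.8%, 51.2 to 62.3), against 748 of 912 with Ring1b (82.0%, 79.4 to 84.4). The background share over all 2813 H3K27me3 regions was 66%. Gene bodies held 47 of the 301 (15.6%) and 42 of the 912 (4.61%), distal positions 38 (12.6%) and 52 (5.70%), and intergenic positions 31 (10.3%) and 58 (6.36%). At 14 regions the H3K27me3 replicates differed in class. Seen the other way, 171 of 1055 promoter regions with both marks lacked Ring1b (16.2%, 14.1 to 18.6), and so did 130 of 334 at all other locations (38.9%, 33.8 to 44.2).

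**Figure D2:**
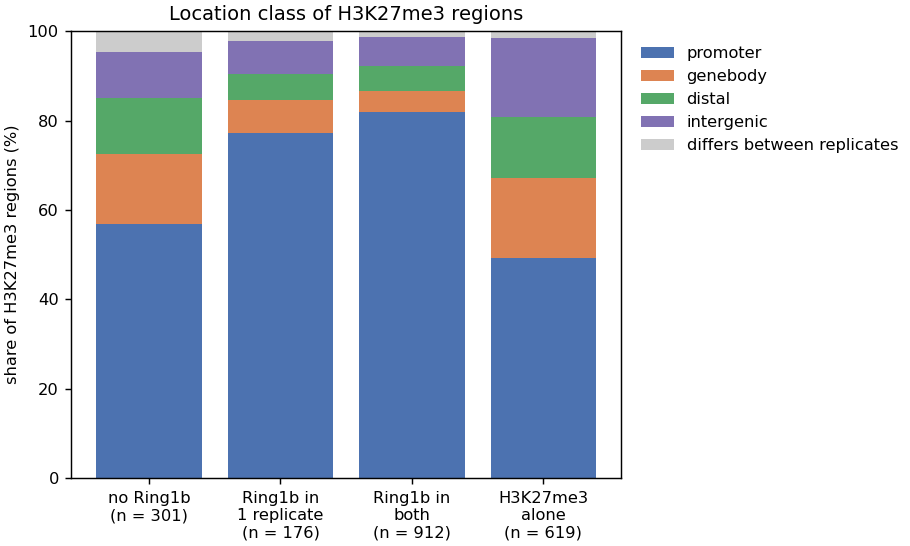
Share of H3K27me3 regions (%) by the authors' location class in both replicates, for the 4 classes of region; grey marks regions whose replicates differ in class. Promoters hold 56.8% of regions lacking Ring1b, 77.3% with Ring1b in 1 replicate, 82.0% with Ring1b in both and 49.3% of those with H3K27me3 alone.

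The 2 patterns crossed at promoters. Among promoter regions with both marks, the share without Ring1b was 27.7% (22.6 to 33.3) in the shortest quartile and 4.17% (2.34 to 7.31) in the longest. At other locations it was 44.0% (33.9 to 54.7) and 35.7% (26.3 to 46.4). Length is tied to the selection, and whether its pattern differs between locations was not tested.

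**Figure D3:**
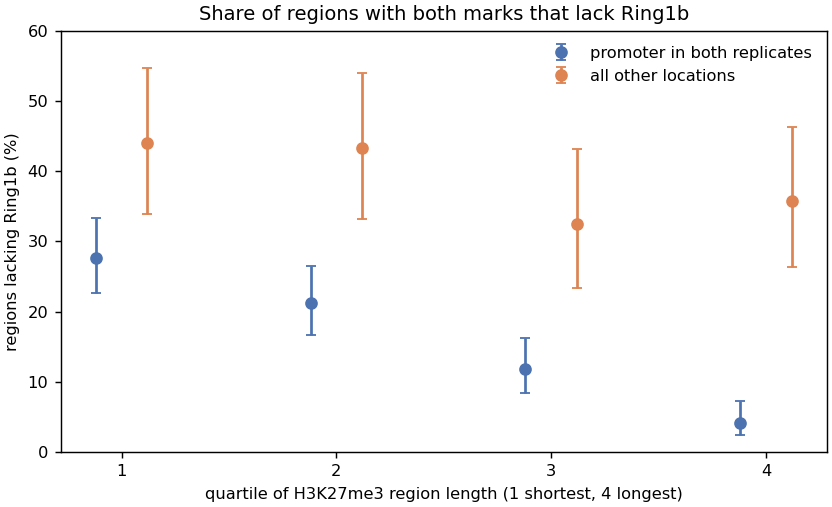
Share of regions with both marks that lack Ring1b (%), by quartile of H3K27me3 region length taken separately for promoters and for all other locations; bars are 95% Wilson intervals (counting error only). The promoter share goes from 27.7% to 4.17%, and the share elsewhere from 44.0% to 35.7%.

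Within the 301 regions, promoter members had the higher ratios. In replicates 1 and 2 the median ratio of H2AK119ub was 2.00 and 2.22, and that of H3K27me3 was 12.1 and 5.31. Gene body members had medians of 1.92 and 2.18 for H2AK119ub and of 10.0 and 4.10 for H3K27me3. Distal members had 1.87 and 2.11, and 9.81 and 4.01. Intergenic members were the longest, with a median of 13005 bp, and had the lowest ratios, at 1.62 and 1.84 for H2AK119ub and 8.82 and 3.46 for H3K27me3. Across the 301 regions the ratios of replicates 1 and 2 had a Spearman rho of 0.50 for H2AK119ub and 0.64 for H3K27me3, as a description over regions that share libraries.

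The regions were spread over all 19 autosomes, with 42 on chromosome 11, 27 on chromosome 7 and 26 on chromosome 8. As a share of regions with both marks they ranged from 5.00% on chromosome 18 (2 regions) and 6.56% on chromosome 3 (4 regions) to 31.1% on chromosome 11. The nearest Ring1b peak lay a median of 62991 bp away (quartiles 23634 and 166244). It was within 1000 bp at 11 regions, within 5000 bp at 24 and within 50000 bp at 125 (41.5%). The median distance was 81012 bp for promoter members and 21267.5 bp for distal members.

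The edges of the selection were as follows. The 3 regions nearest to Ring1b were at Ece2, which encodes an endothelin converting enzyme (chr16:20622849-20631371, 107 bp away), at Chpf and Tmem198 (chr1:75479875-75487201, 113 bp) and distal to Irf8, which encodes an interferon regulatory factor (chr8:120702299-120706930, 187 bp). Ece2 also had the smallest H2AK119ub overlap, 12 bp or 0.14% of its length, so its 2 marks adjoin rather than coincide. Chpf was covered by H2AK119ub in full. Just outside were the regions at Camk2n1, where Ring1b overlapped 15 bp, at Ndufa4l2 (75 bp) and distal to Tcf7l1 (144 bp). Camk2n1 had H2AK119ub ratios of 2.37 and 2.81 and H3K27me3 ratios of 10.3 and 3.50, within the range of the 301. The 3 farthest from Ring1b were the promoters of Lrrc38, encoding an auxiliary subunit of a potassium channel (1262471 bp), Clstn2, a synaptic adhesion protein (915312 bp), and Oxtr, the oxytocin receptor (814648 bp).

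The strongest promoter regions were at genes of channels, receptors, adhesion and matrix proteins and enzymes. The rank used the percentile of each peak's ratio in its list, averaged over a region's peaks and then over both replicates of both marks. It can therefore differ from an order by the region ratios printed here. The first 12 were C1ql2, Znrf4, Rap1gap, Cacna1i, Oxtr, Fbll1, Kcnk3 with Gm9899 in the same row, Elfn2, Kcnc1, Ncan, Esam and Asic4. C1ql2, a secreted synaptic organizer (chr1:120335070-120347935), had H2AK119ub ratios of 3.41 and 3.70 (mean 3.56 ± 0.205, SD, n = 2) and H3K27me3 ratios of 17.0 and 8.17 (12.6 ± 6.26). All 4 values were above the medians of the 301 regions. H2AK119ub covered 23.4% of it, and its promoter is printed above. Znrf4, a ubiquitin ligase gene (chr17:56509179-56514031), had 3.05 and 3.69 for H2AK119ub and 14.5 and 10.2 for H3K27me3, with a Ring1b peak 1002 bp away. Kcnc1, a fast-spiking voltage-gated potassium channel (chr7:46393472-46400877), had 2.35 and 2.39 (2.37 ± 0.0265) for H2AK119ub and 19.3 and 8.32 for H3K27me3. Its nearest Ring1b peak was 444510 bp away.

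Oxtr (chr6:112485733-112491920) combined H2AK119ub ratios of 3.20 and 2.91 (3.05 ± 0.207) with H3K27me3 ratios of 10.8 and 8.75. Its H3K27me3 was below the replicate 1 median of 11.2 and above the replicate 2 median of 4.85. The H2AK119ub ratio in replicate 1 rests on 32 ChIP and 10 input reads. Asic4, an acid-sensing channel family member (chr1:75444611-75460598), had 2.45 and 2.70 for H2AK119ub and 22.0 and 7.47 for H3K27me3. H2AK119ub covered 77.5% of its 15988 bp, with a Ring1b peak 17180 bp away. Esam, an adhesion molecule of endothelium and platelets (chr9:37526140-37532052), had 2.35 and 2.76 for H2AK119ub and 14.5 and 6.48 for H3K27me3. Elfn2 had the widest spread of H2AK119ub among the 12, at 2.31 and 3.96.

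**Figure D4:**
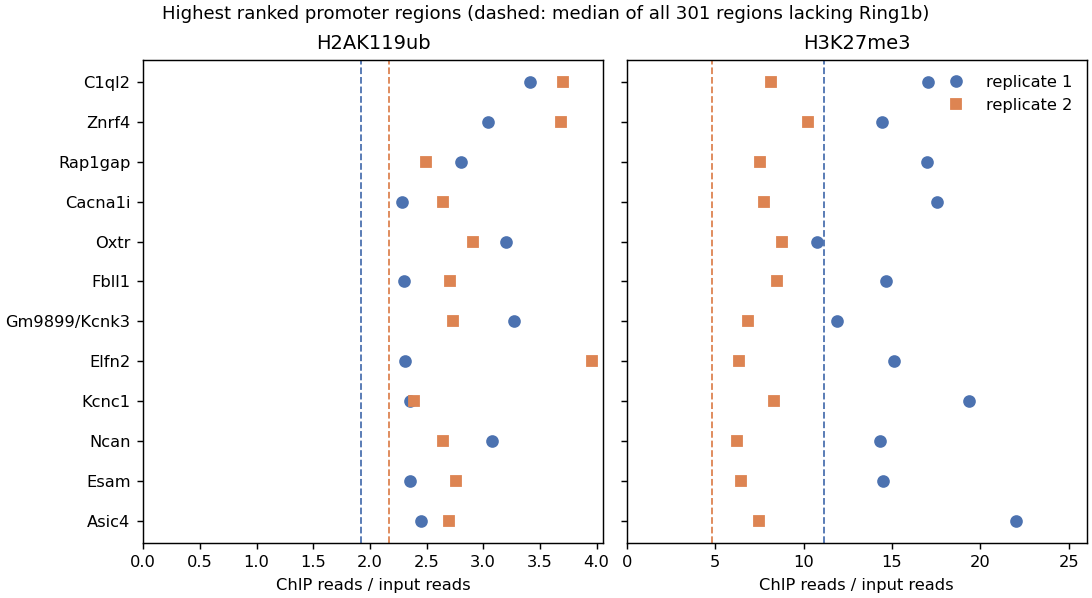
ChIP to input read ratio in each replicate for the 12 promoter regions with the highest rank over both marks; points are single samples and dashed lines the medians of the 301 regions. All 12 lie above the H2AK119ub medians of 1.92 and 2.17 in the same replicate, and Oxtr alone falls below the H3K27me3 replicate 1 median of 11.2.

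Promoter rows of the 301 regions named 177 protein-coding genes, 0.857% of the 20665 on chromosomes 1 to 19, and regions with Ring1b named 784 (3.79%). The lists described next overlap in part and were chosen with results of these data known. They held 1173 genes, of which 57 were at regions lacking Ring1b and 294 at regions with Ring1b. Each region is in 1 class only, so a gene could be named in both only through separate regions, and 2 genes were. The small overlap thus follows from the rule and is no result about the genes. The classes differ in size, so each list's counts are to be read against the backgrounds of 0.857% and 3.79%. Voltage-gated potassium channels stood at 15.4% of their list in each class, collagens and matrix at 12.1% without Ring1b and 8.62% with it, and neural transcription factors at 1.02% and 82.7%. The 57 became 88 without Ring1b replicate 1. Of the 177 genes, 2 (1.13%) were also named in a Ring1b promoter row elsewhere, Chpf in replicate 1 and Nfatc2 in both. The rule bars Ring1b peaks from these regions, so this count too is tied to the selection. At 162 of the 171 promoter regions the gene was named in H2AK119ub promoter rows of both replicates too.

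Ion channel genes had promoters in both classes, and also at regions with H3K27me3 alone (neither H2AK119ub nor Ring1b). Of 39 voltage-gated potassium channel genes, 6 were at regions lacking Ring1b (among them Kcnc1, Kcnh2, Kcnq1 and Kcnq3) and 6 at regions with it. The list also had 4 at regions with Ring1b in 1 replicate and 6 with H3K27me3 alone. Kcnh2, the channel of cardiac repolarization (chr5:24348902-24355417), had H2AK119ub ratios of 2.49 and 2.51 and H3K27me3 ratios of 9.92 and 5.35, with H2AK119ub over 92.2% of it. Kcnq1, a potassium channel gene in an imprinted cluster (chr7:143101255-143115712), had 1.93 and 2.22 for H2AK119ub and 11.1 and 5.33 for H3K27me3, and was the only one of 28 imprinted genes at a region lacking Ring1b, against 3 with Ring1b. The other potassium and acid-sensing channels gave 4 of 45 in each class, here the acid-sensitive background channel Kcnk3, Asic4 and the inward rectifiers Kcnj12 and Kcnj5. With H3K27me3 alone there were 5. The calcium and sodium channels gave 1 of 39, the T-type calcium channel Cacna1i, against 5 with Ring1b and 2 with H3K27me3 alone. Cacna1i (chr15:80281260-80289978) had 2.29 and 2.64 for H2AK119ub and 17.6 and 7.79 for H3K27me3.

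Receptors and transporters of signalling molecules were also found in both classes and with H3K27me3 alone. Of 82 G protein-coupled receptor genes, 7 lay at regions lacking Ring1b and 9 at regions with it. More of them, 18, lay at regions with H3K27me3 alone. Those named by the rank order were Oxtr, the serotonin receptor Htr6, the histamine receptor Hrh3, the glutamate receptor Grm4 and the GABA-B subunit Gabbr2. Htr6 (chr4:139071746-139076980) had 1.91 and 2.22 for H2AK119ub and 11.7 and 6.55 for H3K27me3. Ligand-gated channels gave 2 of 61, the NMDA receptor subunits Grin2c and Grin2d, against 1 with Ring1b and 5 with H3K27me3 alone. Transmitter transport and synthesis genes at regions lacking Ring1b were 5 of 31, against 6 with Ring1b and 2 with H3K27me3 alone. Those lacking Ring1b included Chat and Slc18a3, which make acetylcholine and load it into vesicles and share 1 locus (chr14:32455581-32467928). Their ratios were 1.84 and 2.56 for H2AK119ub and 18.4 and 6.79 for H3K27me3. Slc17a7, the vesicular glutamate transporter, had 1.68 and 2.49, and 18.2 and 8.22. The proline transporter Slc6a7 had 2.93 and 2.03, and 12.6 and 5.96.

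The lists of synaptic, guidance, cytoskeletal, adhesion and GTPase genes each had members in both classes. Synaptic and vesicle proteins gave 3 of 85 (C1ql2, Elfn2 and Adgrb2), against 18, and axon guidance 4 of 68 (Slit3, Epha8, Epha10 and Slit1), against 11. Neuronal cytoskeleton genes gave 3 of 29 (Nefm, Tubb3 and Elavl3), against 6. Tubb3, a neuronal beta-tubulin (chr8:123407634-123413209), had 1.70 and 2.23 for H2AK119ub and 13.9 and 6.80 for H3K27me3, with H2AK119ub over its whole length. Celsr3 was the only one of 43 cadherin genes, against 8, and Rap1gap, Rgs8 and Rem1 were 3 of 58 regulators of GTPases, against 6.

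Developmental transcription factors of the lists were mostly at regions with Ring1b. Of 98 neural transcription factor genes, 81 had promoters at regions with Ring1b and 1, Scrt2, at a region lacking it. Scrt2, a zinc finger repressor of neurons (chr2:152076102-152085127), had 2.60 and 3.07 for H2AK119ub and 9.50 and 6.07 for H3K27me3, and a Ring1b peak lay 7834 bp away. Mesoderm and muscle factors gave 49 of 69 with Ring1b and 1 without, Myod1, the muscle determination factor. Myod1 (chr7:46372698-46379025) had 2.15 and 2.68 for H2AK119ub and 13.3 and 6.26 for H3K27me3, and its nearest Ring1b peak was 466362 bp away. Endoderm factors gave 17 of 25 with Ring1b and 1 without, the intestinal factor Cdx1, at 1.67 and 2.73 for H2AK119ub and 12.6 and 5.84 for H3K27me3. Hox genes gave 24 of 39 with Ring1b and 0 without. These lists are not complete: the transcription factor genes Sox8 and Snai1 had promoters at regions lacking Ring1b and are not on them. Among Wnt, BMP, FGF and hedgehog ligands and their relatives, 19 of 63 were with Ring1b and 2 without, the neighbouring Nodal antagonists Lefty1 and Lefty2. Lefty2 had H2AK119ub ratios of 3.44 and 2.25, the first from 31 ChIP and 9 input reads, and Lefty1 had 2.11 and 1.98.

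Genes of matrix and muscle proteins were found as follows. Collagen and matrix genes gave 7 of 58, against 5 with Ring1b. The brain proteoglycans Ncan and Bcan, the collagens Col15a1, Col1a1 and Col26a1 led in rank. Ncan (chr8:70108863-70122388) had 3.08 and 2.65 for H2AK119ub and 14.3 and 6.26 for H3K27me3, with H2AK119ub over 13.3% of it. Striated muscle proteins gave 4 of 62 (among them Acta1, Klhl40 and Speg), against 1 with Ring1b, which was Speg again. Acta1, skeletal muscle actin (chr8:123889395-123896548), had 2.03 and 2.01 (2.02 ± 0.0115) for H2AK119ub and 16.5 and 7.40 for H3K27me3.

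Lists of genes of skin and neighbouring cells were short, and their counts are small. The Merkel cell list, genes of the touch receptor cells of the epidermis, gave 2 of 22 without Ring1b (Nefm and Tubb3, also neuronal) and 11 with it. Hair follicle genes gave 0 of 34 and 10. Krt19, a simple epithelial keratin (chr11:100141662-100147491), was the only one of 28 simple and hair keratins without Ring1b, with 1.76 and 1.78 for H2AK119ub and 8.42 and 3.30 for H3K27me3, both of the latter below the medians. Of 12 dermal fibroblast genes, Col1a1 and Vim lay without Ring1b and 1 with it. Of 12 endothelial and immune genes, 0 lay without Ring1b and 1 with it, but the list is not complete. Esam, among the 12 leading promoter regions, is also expressed in endothelium and is not on the list. The immune cell genes Flt3, Fgr, Coro1a, Batf3 and Fcrlb also had promoters at regions lacking Ring1b and are not on the list. The count of 0 therefore does not mean that such genes were absent from these regions.

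**Figure D5:**
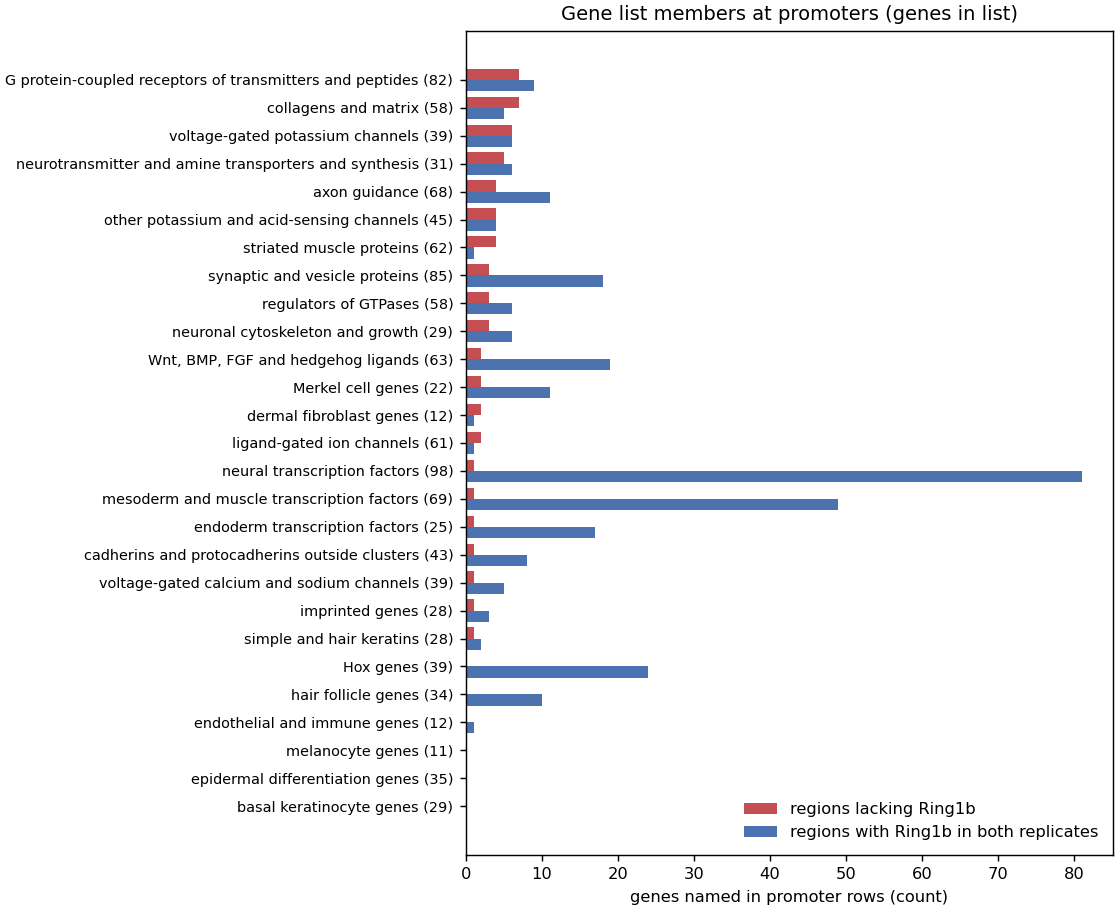
Number of genes per list named in promoter rows of regions lacking Ring1b (red) and of regions with Ring1b in both replicates (blue); the number of genes in each list is in brackets. Neural transcription factors stand at 1 and 81, voltage-gated potassium channels at 6 and 6, and striated muscle proteins at 4 and 1.

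Outside promoters, the longest regions lay in gene bodies or away from genes. The longest, 50001 bp, was in the body of Zfhx3, a homeobox and zinc finger transcription factor gene (chr8:108796543-108846543). It had H2AK119ub ratios of 1.95 and 2.30 and H3K27me3 ratios of 11.9 and 4.73, close to the medians of the 301. Zfhx3 held 5 of the 301 regions, spread from 108767219 to 108909731 with 129063 bp in sum, and the gene accounts for 5 of the 47 gene body members. The nearest Ring1b peak was between 51031 and 168529 bp from them. Further long regions were intergenic on chromosome 3 (45337 bp) and chromosome 6 (43551 bp), at the promoter of the cartilage gene Ucma (39743 bp) and distal to Pdhx (37263 bp). The remaining 3 of the first 8 were at Cobl (33402 bp), at Gm11733 and Gm8624 (32357 bp) and at the ammonium transporter gene Rhcg (31060 bp). At Pdhx the H2AK119ub ratio was 4.00 in replicate 1, from 32 ChIP and 8 input reads, and 1.66 in replicate 2.

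Gene body members chosen after their values were seen include the synaptic genes Shank1 and Nrxn2. Shank1, a postsynaptic scaffold (chr7:44347967-44359426), had 2.60 and 2.81 for H2AK119ub and 23.8 and 7.58 for H3K27me3. Nrxn2, a presynaptic adhesion molecule (chr19:6494533-6502741), had 1.95 and 2.48, and 25.2 and 6.63. The replicate 1 H3K27me3 ratios of both were above that of every one of the 12 leading promoter regions, which were ranked on both marks. In replicate 2 both lay within the range of those 12, below Znrf4 (10.2) and above Elfn2 (6.33). Promoter members outside the 12 had higher replicate 1 ratios, such as Lin28a (30.5) and Avp (25.7). Rbfox3, which encodes the neuronal splicing factor NeuN, held 2 regions under 1 shared H2AK119ub domain, so their H2AK119ub ratios of 1.96 and 2.52 are the same measurement. In all, 15 gene names were attached to more than 1 of the 301 regions, and neighbouring regions on a chromosome lay within 50000 bp of each other in 41 of 282 pairs. The regions are thus not fully independent of each other.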

How the data were processed

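ChIP-seq peak lists of 6 samples were read: 2 replicates each of Ring1b, H2AK119ub and H3K27me3, grouped by sample title. The other 8 samples were not analysed here. Per the submitters' processing notes the build was mm10, and the tools listed are MACS2 2.1.0, SAMtools 0.1.19, Bowtie2 2.2.3, Bowtie 1.1.1 and Trim Galore 0.4.1. The role of each tool and the test behind the p-values are not stated in what was read here. Per the file headers, each deposited row gives a peak's position, its maximum height (a coverage signal), counts of ChIP and input reads, a p-value, a location class and gene names. The read counts in the authors' lists are whole numbers, and no scaling of them is described. Library totals are not known, so reads in peaks are not a depth. Whether positions count from 0 or 1 is not given, and they were treated as closed intervals.

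Peaks of both replicates that shared 1 bp or more were joined, and regions with peaks of both were kept (Python 3.11.15, pandas 2.3.3). Merging and classification were checked on simulated intervals. A region's ratio is the sum of ChIP reads over the sum of input reads in its peaks, per replicate. H2AK119ub values cover the whole of each peak in an H2AK119ub region that the H3K27me3 region meets. A region counts as a promoter in a replicate if any of its peaks there carries that class. Gene names were matched to RefSeq for GRCm38.p6: of 7096 names, 6910 were current symbols, 173 matched a synonym and 13 did not match. Exons, introns and UTRs were not told apart.

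The members and gene lists were chosen with earlier results of these data known. No test was made, since the peaks that chose the regions also gave their values. Shares carry 95% Wilson intervals (counting error only, and regions are not replicates). Genes were named by rule: the 12 promoter regions with the highest mean percentile of the ratio, the 8 longest regions, up to 5 genes per list by that rank, and the 3 regions nearest to and farthest from Ring1b and just outside the selection. Where a list held more than 5, the others are given by name or count only. Some genes that the rule picks are not reported here. A planned comparison of promoter CpG content, and of GC percent in its place, was not made: it was void because promoter windows were found for 118 of 178 pairs of gene and region (66.3%), below the 80% required. Alternatives varied overlap, distance, p-value, list and replicate.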

Additional observations from a re-analysis of the deposited data

How the results depend on the processing

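Of 93 recomputed values of 7 results under 14 alternatives, 55 stayed within a set tolerance and 38 did not. The tolerance was 1.5 times for a count, the 95% interval for a share and 1 SD between replicates for a difference or length ratio, so the 446 regions without Ring1b replicate 1 count as within it. The log2 H2AK119ub difference, -0.0023 as reported and smaller than its SD, took either sign across the alternatives. Requiring H2AK119ub over at least 50% of a region gave 184 regions, 19.1% of regions with both marks, a length ratio of 0.536 and 36 list genes. Allowing a Ring1b peak of 1 replicate gave 477 regions, 34.3%, a promoter share of 64.4% and 95 list genes. A p-value of at most 0.001 for both marks gave 130 regions, 15.8%, a log2 H2AK119ub difference of 0.061, a length ratio of 0.523 and 30 list genes. The same limit for all 3 antibodies left 37.1% lacking Ring1b, with 66.0% at promoters and a length ratio of 0.457. The deposited union lists gave 1040 regions, 39.7%, 46.8% at promoters, a log2 H3K27me3 difference of -0.42, a length ratio of 0.658 and 115 list genes. The union lists and the p-value limits change which peaks are read; no further cause was tested.

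Leaving out 1 replicate of an antibody at a time gave 336 to 571 regions, 23.8% to 32.1% lacking Ring1b and 49.7% to 63.5% at promoters. The log2 H2AK119ub difference ranged from -0.077 to 0.031 and the log2 H3K27me3 difference from -0.39 to -0.18. The length ratio ranged from 0.536 to 0.674 and the list genes from 58 to 88. All 6 of these gave more regions than the 301. Leaving out a list also changes the rule, since a region then needs fewer lists to agree or has fewer Ring1b peaks to avoid. It changes the extent of merged regions as well, and why the counts rose was not tested. The GC alternative was not run, since the CpG comparison was void. No paired analysis was possible because no result comes from a test. H2AK119ub read counts, at a median of 82 ChIP reads per region in replicate 1, limit the precision of single regions.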
